A study of Takifugu alboplumbeus with 24 samples.

Results

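The endoplasmic reticulum (ER) is where a cell makes the proteins it will secrete or place in its membranes, and 43 genes of that machinery are described here in the brain of a beach-spawning fish, the grass puffer (Takifugu alboplumbeus). Of the 24935 genes and transcripts in the deposited table, 41 were chosen because their symbol belongs to this machinery and 2 because of their gene identity, LOC101066901 (named as translocon-associated protein subunit alpha-like) and LOC101066257 (ER lumen protein-retaining receptor 2-like). All 43 had a mean of at least 1 FPKM (fragments scaled to transcript length and library size), the limit for testing that 17058 genes passed, and the lowest member mean was 5.18 FPKM (pdia5). Names come from the deposited annotation, which follows gene models of Takifugu rubripes, and roles given below are those known from mammals and yeast.

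The fish were wild males caught weekly at a spawning site in Japan, with 3 libraries at each of 8 dates in a row: New moon May, Waxing moon May, Full moon June, Waning moon June, New moon June, Waxing moon June, Full moon July and Waning moon July. New and full moon dates are spring tides (4 dates, 12 libraries) and waxing and waning moon dates are neap tides (4 dates, 12 libraries), and the design asks how expression differs between these tides. Each library is called 1 fish here, although the labels do not say so, and p-values measure only the spread between these libraries and dates. The tissue was 1 block that held the pituitary, the hypothalamus and the ventral telencephalon, taken in the evening. In such bulk tissue, fewer cells of a type and less RNA per cell cannot be told apart.

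A protein bound for secretion carries a signal peptide that the signal recognition particle (SRP) catches as it leaves the ribosome and brings to the SRP receptor on the ER. The chain then passes through the Sec61 channel, the signal peptidase cuts the signal off, the oligosaccharyltransferase adds sugar chains, and chaperones and disulfide isomerases of the ER lumen fold the product. Hormone-secreting cells such as those of the pituitary depend on this route, and cells raise many ER chaperones when unfolded protein builds up.

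At spring tide 11 of the 43 genes rose and 0 fell (limma, adjusted p under 0.05), and 40 of 43 had a higher level at spring than at neap tide. Among all genes tested, 1.32% rose and 4.31% fell at spring tide, and 41.5% were higher. The 43 genes were chosen with the tide differences of hspa5, dnajc3, creld2, pdia3 and LOC101066901 known, and all of these rose. The counts are therefore no independent support for a tide difference of this machinery. Of 16 tested copies with only an LOC symbol that were left out of the 43, 1 rose and 1 fell. The median difference of the members, spring minus neap, was 0.27 on the scale of log2(FPKM + 1), which understates fold changes of low genes, while the median over all genes was -0.04. The genes that rose were srp9, sec61g, sec61b, LOC101066901, spcs1, sec11a, hspa5, creld2, dnajc3, pdia3 and kdelr3, and no gene passed in the roles of the oligosaccharyltransferase, calreticulin and the regulator xbp1. When each library was scaled to the same sum (as in TPM), the median over all genes moved to -0.15, 32 of 43 members were higher, 6 rose (sec61g, sec61b, creld2, LOC101066901, dnajc3 and kdelr3) and 2 fell (sec62 and sec63). With that scaling 0.68% of all genes rose and 16.8% fell, so the share of members that fell was below that of all genes.

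**Figure D1:**
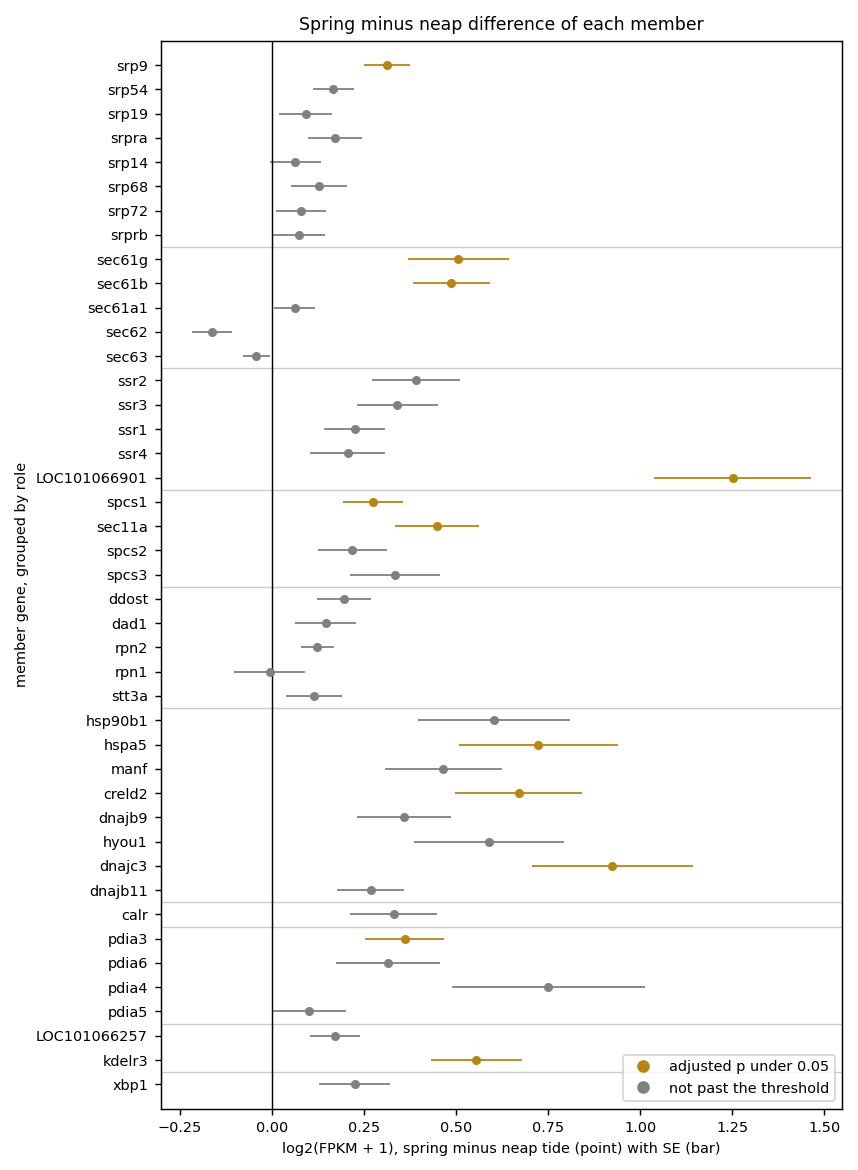
Difference of each of the 43 genes between tides, spring minus neap, on the log2(FPKM + 1) scale (point) with its standard error (bar), grouped by role from the SRP at the top to xbp1 at the bottom. Points of the 11 genes past the threshold are coloured, and 40 of 43 points lie right of 0, against 32 of 43 when every library is scaled to the same sum.

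The 8 genes of the SRP and its receptor had small differences. All 8 were higher at spring than at neap tide, by a median of 0.11 (log2), although srp19, srp14, srp72 and srprb were lower when libraries were scaled to the same sum. Only srp9, which with srp14 forms the part of the particle that slows translation, passed the threshold. Its lowest, median and highest levels were 48.3, 59.3 and 69.6 FPKM over the 12 spring libraries, against 42.4, 47.5 and 58.3 FPKM over the 12 neap libraries. All 12 spring libraries lay above the neap median, and 6 lay above every neap library. The means were 60.2 ± 5.58 FPKM at spring tide and 48.3 ± 5.36 FPKM at neap tide (SD, n = 4 dates each), a log2 difference of 0.31 (SE 0.06, adjusted p = 0.0180). The subunit that binds the signal peptide, srp54, had every spring date mean (47.8 to 58.1 FPKM) above every neap date mean (42.8 to 47.6 FPKM), with a log2 difference of 0.17 that did not pass (adjusted p = 0.0682). The assembly subunit srp19 averaged 32.4 ± 5.81 FPKM at spring and 30.0 ± 0.98 FPKM at neap tide, and its difference of 0.09 did not pass.

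The Sec61 channel has a pore-forming alpha subunit and the small subunits beta and gamma, and the small subunits rose while the pore subunit did not pass the threshold. The beta subunit sec61b had 49.0, 69.2 and 124 FPKM as lowest, median and highest level over the spring libraries, against 46.2, 51.3 and 56.9 FPKM over the neap libraries. The neap dates were nearly level, with date means of 50.4 to 51.9 FPKM, and all 4 spring date means, 57.0 to 101 FPKM, lay above them. Its log2 difference was 0.49 (SE 0.10, adjusted p = 0.0199). The gamma subunit sec61g averaged 104 ± 19.2 FPKM at spring tide and 73.0 ± 17.4 FPKM at neap tide, a log2 difference of 0.51 (SE 0.14, adjusted p = 0.0361), and all 12 spring libraries lay above the neap median. However, the neap date Waxing moon May (97.2 FPKM) lay above New moon May (95.5 FPKM) and New moon June (81.0 FPKM). The pore subunit sec61a1 averaged 25.9 ± 3.60 FPKM at spring tide and 24.6 ± 1.204 FPKM at neap tide, and its difference of 0.06 (adjusted p = 0.503) turned to -0.07 when libraries were scaled to the same sum.

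Sec62 and Sec63 help Sec61 to take up proteins after their synthesis is complete. They are named here because they stand apart by their values. sec62 was the member with the lowest tide difference, with 19.9, 22.4 and 25.4 FPKM as lowest, median and highest level over the spring libraries and 21.4, 25.6 and 27.5 FPKM over the neap libraries. No spring library lay above the neap median. Its log2 difference was -0.16 (SE 0.05, adjusted p = 0.0702), and it was -0.29 (adjusted p = 0.0277) when libraries were scaled to the same sum. sec63 averaged 18.0 ± 0.85 FPKM at spring and 18.6 ± 0.28 FPKM at neap tide, a difference of -0.04 (adjusted p = 0.498), and it varied less between dates than any other member, with 1.09-fold between its highest and lowest date. Its difference was -0.17 (adjusted p = 0.0336) with libraries scaled to the same sum and 0.00 with median-ratio scaling.

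The translocon-associated protein complex (TRAP) sits beside Sec61 and aids the entry of some signal peptides. Its gene LOC101066901 had the highest tide difference of the 43 genes. It had 11.8, 20.8 and 32.9 FPKM as lowest, median and highest level over the spring libraries, against 4.64, 7.57 and 14.7 FPKM over the neap libraries. Every spring library lay above the neap median, 9 of 12 lay above every neap library, and the 3 that did not were 2 of New moon June and 1 of New moon May. The means were 20.7 ± 6.13 FPKM at spring tide and 8.02 ± 1.53 FPKM at neap tide (SD, n = 4 dates each), a log2 difference of 1.25 (SE 0.21, adjusted p = 0.00752). The other subunits ssr2, ssr3, ssr1 and ssr4 were all higher at spring tide by 0.21 to 0.39 and did not pass. ssr2, the most abundant of them in FPKM, averaged 179 ± 41.9 FPKM at spring and 135 ± 17.3 FPKM at neap tide (log2 difference 0.39, adjusted p = 0.0527). ssr3 averaged 99.98 ± 20.2 FPKM at spring and 78.1 ± 11.4 FPKM at neap tide (0.34, adjusted p = 0.0613), and ssr1, also an alpha subunit, averaged 50.6 ± 7.21 FPKM at spring and 42.6 ± 0.67 FPKM at neap tide (0.22, adjusted p = 0.0961).

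All 4 genes of the signal peptidase were higher at spring tide and 2 rose. The catalytic subunit sec11a had 37.5, 54.7 and 86.8 FPKM as lowest, median and highest level over the spring libraries and 32.2, 40.8 and 53.5 FPKM over the neap libraries. The 4 spring date means, 45.4 to 74.5 FPKM, all lay above the 4 neap date means, 41.2 to 43.6 FPKM, and the log2 difference was 0.45 (SE 0.11, adjusted p = 0.0307). The accessory subunit spcs1 averaged 142 ± 25.7 FPKM at spring tide and 117 ± 13.9 FPKM at neap tide, a log2 difference of 0.27 (SE 0.08, adjusted p = 0.0485) close to the threshold. For spcs1 the neap date Waxing moon May (137 FPKM) lay above New moon May (112 FPKM) and New moon June (132 FPKM). spcs2 differed by 0.22 and spcs3 by 0.33, and neither passed. None of the 5 oligosaccharyltransferase genes passed. ddost differed by 0.20 (adjusted p = 0.0999), dad1 by 0.15, rpn2 by 0.12 (adjusted p = 0.0973) and -0.01 with libraries scaled to the same sum, stt3a by 0.11, and rpn1, the only one lower at spring tide, by -0.01 (adjusted p = 0.975).

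The 8 lumenal chaperones and their partners had the highest median tide difference of the role groups with more than 1 gene, 0.60, and all 8 were higher at spring tide. hspa5 encodes BiP, the HSP70 chaperone of the ER, which also holds the sensors of the unfolded protein response inactive. Its lowest, median and highest levels were 71.0, 105 and 234 FPKM over the spring libraries, against 36.2, 71.7 and 153 FPKM over the neap libraries. The groups overlapped, with 4 of 12 spring libraries above every neap library and 11 of 12 above the neap median. The means were 129 ± 49.9 FPKM at spring tide and 77.5 ± 29.3 FPKM at neap tide (SD, n = 4 dates each), and hspa5 rose by a log2 difference of 0.72 (SE 0.22, adjusted p = 0.0486).

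dnajc3, a BiP partner that also restrains the stress kinase PERK, had 10.1, 18.7 and 44.0 FPKM as lowest, median and highest level over the spring libraries and 7.36, 8.04 and 21.8 FPKM over the neap libraries. Every spring library lay above the neap median, and the highest neap values were those of Waxing moon May fish 1 and fish 3. Its log2 difference was 0.92 (SE 0.22, adjusted p = 0.0245). creld2, a disulfide-containing chaperone partner that is induced by ER stress in mammals, averaged 34.8 ± 15.7 FPKM at spring tide and 20.1 ± 5.28 FPKM at neap tide, a log2 difference of 0.67 (SE 0.17, adjusted p = 0.0320), with 6 of 12 spring libraries above every neap library. hsp90b1, the HSP90 of the ER, averaged 153 ± 54.3 FPKM at spring and 98.0 ± 28.7 FPKM at neap tide (0.60, SE 0.21, adjusted p = 0.0747), and the secreted stress protein manf averaged 56.2 ± 18.0 FPKM at spring and 39.7 ± 8.45 FPKM at neap tide (0.47, adjusted p = 0.0746). Neither passed, and nor did hyou1, dnajb9 or dnajb11, which differed by 0.27 to 0.59. The tide differences of hspa5, dnajc3, creld2, pdia3 and LOC101066901 were known when the 43 genes were chosen.

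The sugar-binding chaperone calr differed by 0.33 (adjusted p = 0.0883), with 94.9 ± 15.2 FPKM at spring and 75.8 ± 16.1 FPKM at neap tide. Of the 4 disulfide isomerases, pdia3, which works with calreticulin on glycoproteins, rose. Its lowest, median and highest levels were 103, 128 and 172 FPKM over the spring libraries, against 74.2, 106 and 133 FPKM over the neap libraries. The groups overlapped, with 5 of 12 spring libraries above every neap library, and the log2 difference was 0.36 (SE 0.11, adjusted p = 0.0486). pdia4 had a larger difference, 0.75, with a larger standard error, 0.26, and did not pass (adjusted p = 0.0801), and pdia6 differed by 0.32 and pdia5 by 0.10. The KDEL receptors return escaped chaperones from the Golgi, and kdelr3 rose by 0.55 (SE 0.12, adjusted p = 0.0225), with 8.42 ± 1.66 FPKM at spring and 5.39 ± 1.04 FPKM at neap tide and every spring library above the neap median. LOC101066257, the other receptor gene among the members, differed by 0.17 (adjusted p = 0.116), with 17.9 FPKM at spring and 15.6 FPKM at neap tide. Its copy LOC101065176, which is not a member, had higher levels, 36.8 FPKM at spring and 31.6 FPKM at neap tide. That copy differed by 0.20 (adjusted p = 0.1055) and did not pass. Of these genes, only kdelr3, the lowest in FPKM, rose. xbp1, the transcription factor that drives many ER genes once its messenger is spliced, differed by 0.22 (adjusted p = 0.142), and gene-level values do not show its splicing.

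Most of the 43 genes had their highest levels at a full moon, more than at the spring dates as a whole. This was noticed after the values had been seen. Of the 43 genes, 33 had their highest date mean at Full moon July and 8 at Full moon June, which is 41 of 43 at either full moon, while 28.9% of all genes tested peaked there. In 35 of 43 the means of both full moons lay above those of the other 6 dates, against 8.69% of all genes. The 8 exceptions were srp54, srp14, srp68, sec62, sec63, dad1, rpn1 and xbp1. Only 6 members (srp54, sec61b, ssr1, LOC101066901, sec11a and dnajb9) had all spring date means above all neap date means, against 2.28% of all genes. The lowest date was Waning moon July for 19 of the 43 genes, against 9.94% of all genes.

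**Figure D2:**
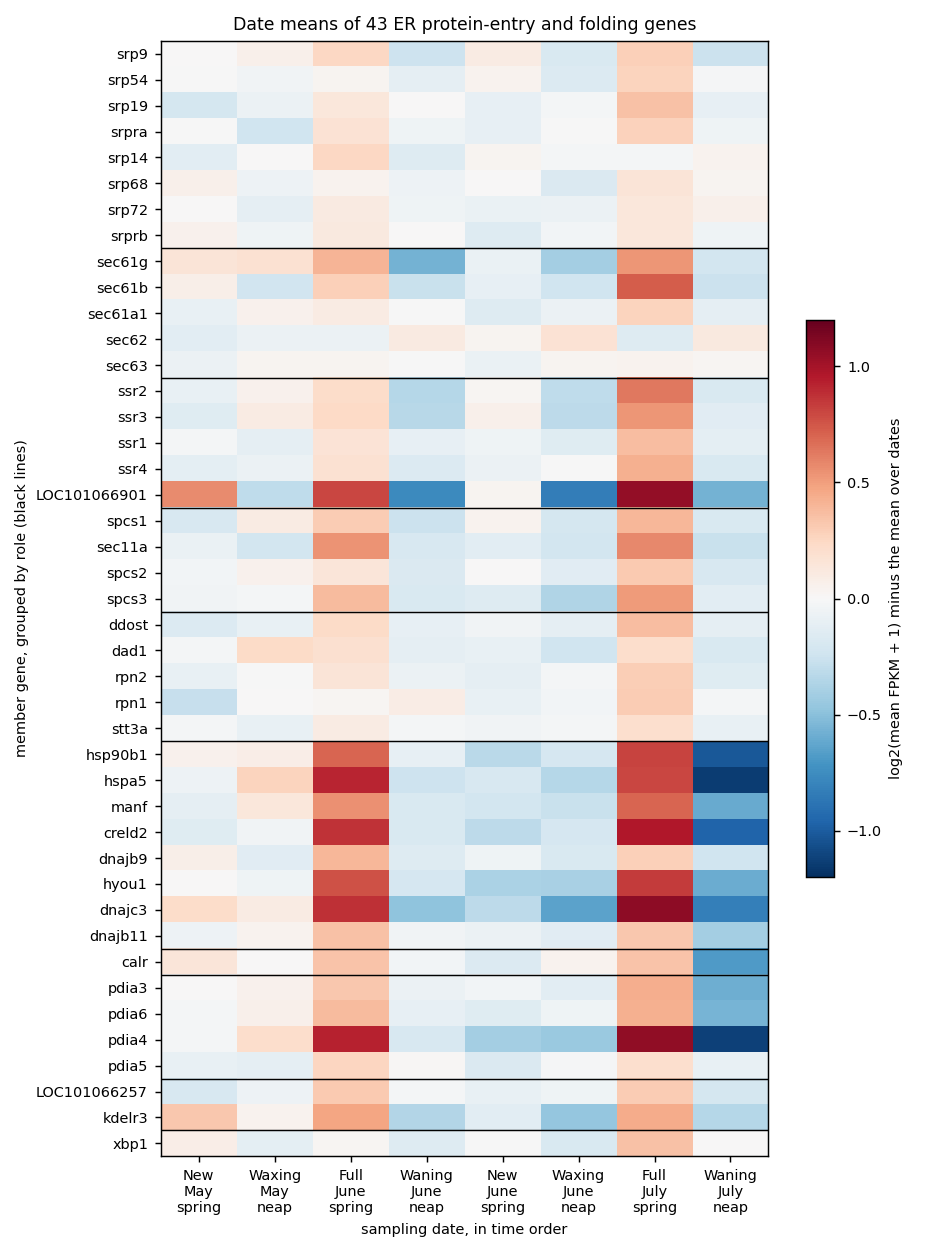
Date means of the 43 genes as log2(mean FPKM + 1) minus the mean over the 8 dates, with dates in time order from left to right and genes grouped by role. Full moon June and Full moon July are the 2 columns with most positive values, and some of the chaperones, pdia4 and LOC101066901 have the deepest colours.

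The widest ranges between dates were those of pdia4, LOC101066901 and some of the chaperones. In time order, pdia4 had 87.2, 88.5 and 46.6 FPKM in the 3 fish of Full moon June, 26.9, 24.8 and 35.02 FPKM at New moon June, 128, 71.8 and 45.7 FPKM at Full moon July and 14.6, 17.9 and 19.3 FPKM at Waning moon July. Fish within a full moon date differed by more than 1.5 times, and the lowest full moon fish of pdia4 lay below the 2 higher fish of Waxing moon May (61.3 and 51.9 FPKM). From its highest to its lowest date pdia4 spanned 4.73-fold, hspa5 4.22-fold, LOC101066901 4.10-fold, dnajc3 4.09-fold, creld2 4.01-fold and hsp90b1 3.60-fold. The chaperone partners dnajb11 (1.75-fold) and dnajb9 (1.59-fold), named here for their place in this order, spanned less than sec61g (2.17-fold) or kdelr3 (2.11-fold).

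In the first lunar cycle hspa5 had 94.3, 105 and 71.0 FPKM at New moon May, 153, 62.4 and 127 FPKM at Waxing moon May, 195, 212 and 129 FPKM at Full moon June and 74.1, 69.5 and 95.0 FPKM at Waning moon June. In the second it had 90.1, 71.9 and 84.8 FPKM at New moon June, 80.8, 68.6 and 73.8 FPKM at Waxing moon June, 234, 158 and 104 FPKM at Full moon July and 36.2, 45.4 and 45.5 FPKM at Waning moon July. Of the 6 full moon fish 5 lay above all new moon fish, and the sixth, fish 3 of Full moon July, lay below the highest of them. creld2 had 46.5, 60.4 and 33.1 FPKM at Full moon June and 69.1, 41.3 and 39.1 FPKM at Full moon July, and all 6 of these fish lay above every other library, the highest of which had 28.9 FPKM at Waxing moon May. In rpn2, sec11a and LOC101066257, too, all 6 full moon libraries lay above the other 18. These are 4 of the 43 members, and 0.123% of all genes tested (21 genes) had this order.

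**Figure D3:**
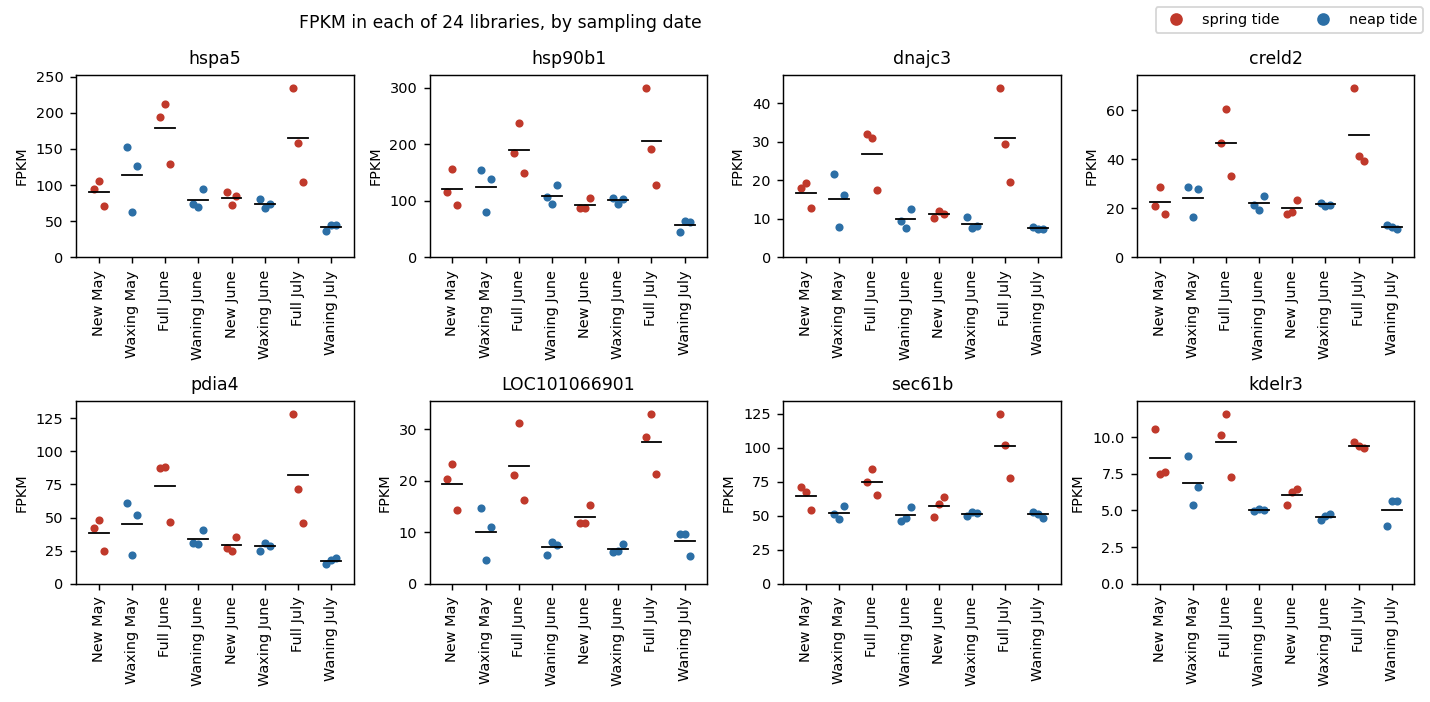
FPKM of 8 members in each of the 24 libraries, with dates in time order; points are libraries, bars are date means, and spring dates have another colour than neap dates. hspa5, hsp90b1, dnajc3, creld2 and pdia4 are high at both full moons with a wide spread between fish. LOC101066901 and sec61b also have new moon date means above all neap date means, although single libraries overlap.

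The design also compares the phases within the spring dates, new minus full moon. It uses the same libraries in which the full moon values were noticed, so its directions are no separate support for them. At new moon 42 of 43 members were lower than at full moon, all but sec62, with a median log2 difference, new minus full, of -0.39, against -0.01 over all genes, of which 8855 of 17058 were lower at new moon. None of the 43 passed the threshold, and 0.0176% of all genes did (3 genes). At an unadjusted p under 0.05 there were 31 of the 43 members, against 11.97% of all genes. The smallest adjusted p was 0.110, for rpn2, an oligosaccharyltransferase subunit. rpn2 had 50.9, 44.4 and 43.7 FPKM at New moon May and 47.1, 42.7 and 47.4 FPKM at New moon June, against 54.4, 56.5 and 54.4 FPKM at Full moon June and 61.5, 59.8 and 61.1 FPKM at Full moon July. The groups did not overlap, and the log2 difference was -0.33 (SE 0.07).

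Several folding genes had the lowest values in this comparison. pdia4 differed by -1.15 (SE 0.37, adjusted p = 0.255), creld2 by -1.12 (SE 0.24, adjusted p = 0.126), dnajc3 by -0.97 (SE 0.31, adjusted p = 0.250), hspa5 by -0.95 (SE 0.30, adjusted p = 0.255), hyou1 by -0.93 (SE 0.29, adjusted p = 0.245) and hsp90b1 by -0.86 (SE 0.29, adjusted p = 0.268), new minus full. Other folding genes were closer to 0, with dnajb9 at -0.31, calr at -0.35, pdia5 at -0.35 and pdia3 at -0.39, while sec11a was at -0.65 and LOC101066901 at -0.61. The median over the 8 chaperones was -0.89, while it was -0.48 over the signal peptidase and -0.16 over the SRP and its receptor. LOC101066901, with 16.1 FPKM at new moon and 25.2 FPKM at full moon, was higher at both than at the waxing (8.40 FPKM) and waning moon (7.63 FPKM). This order was not particular to it, as members of most roles had it too. Among them were srp9, sec61g, sec61b, ssr1, sec11a, dnajc3, hyou1, pdia3, kdelr3 and xbp1. By contrast, pdia4, creld2, hspa5 and hsp90b1 were lower at new than at waxing moon. Without Full moon June fish 3 the count of members past the threshold in new minus full moon was 9 (0.692% of all genes passed), and it was 8 without the date Waxing moon May (0.727%) and 8 without Waxing moon June (0.791%).

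Between the neap phases, waxing minus waning moon, 0 of 43 members passed, as did 0% of all genes. An unadjusted p under 0.05 was found in 2 of 43 members (calr and srp9) against 2.85% of all genes, which is near that share. calr had the smallest p, with 84.9 FPKM at waxing and 66.7 FPKM at waning moon (log2 difference 0.38, SE 0.17, adjusted p = 0.997). The tide difference of the second lunar cycle minus that of the first did not pass in any of the 43 genes, nor in any gene (0%). No member had an unadjusted p under 0.05, against 3.56% of all genes. The smallest p was that of pdia3, whose tide difference was 0.56 in the second and 0.16 in the first cycle. LOC101066901 had the same tide difference in both cycles, 1.25. Within the second cycle alone LOC101066901 (adjusted p = 0.0448) and srp9 (0.41, adjusted p = 0.0382) passed, both higher at spring tide. These are 2 of 43 members, against 3.16% of all genes that passed in either direction. The share of all genes that rose in that fit is not given, so the 2 are not shown to be particular to the members. Within the first cycle 0 members and 0% of all genes passed. A trend over the weeks was past the threshold in 0 members and 0% of all genes. At an unadjusted p under 0.05 there were 0 members, against 8.48% of all genes. The smallest p of the members was that of srp54, at 0.02 per week (adjusted p = 0.656).

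Dates differed beyond the spread between fish of a date in 33 of 43 members, against 41.3% of all genes (limma F test). The smallest adjusted p-values were those of creld2 (0.000153), srp9 (0.000240), sec61b (0.000288), spcs1 (0.000315), LOC101066901 (0.000329) and rpn2 (0.000385). The 10 that did not pass include xbp1 (adjusted p = 0.0502) and sec63 (0.262). With the library FPKM sum as a covariate, 8 members passed, against 7.7% of all genes.

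Measures of the libraries moved with these results. FPKM summed over the whole table came to 461 to 552 kFPKM (median 507) at spring tide and 435 to 519 kFPKM (median 452) at neap tide. A pituitary score, the mean log2(FPKM + 1) of 8 hormone genes, ran from 9.94 to 11.5 (median 10.9) in spring libraries and from 4.54 to 10.7 (median 9.35) in neap libraries. The 8 genes include gonadotropin subunits, so the score can also move with these hormones and not only with the amount of pituitary. Over the 5 hormone genes without them it ran from 9.33 to 10.95 (median 10.2) in spring libraries. In neap libraries it then ran from 4.06 to 9.84 (median 9.61). Of 15 tested genes of the pituitary marker list 13 were higher at spring tide and 1 rose, no gene of the list was listed at 0 throughout, and the summed level was 20140 to 65910 FPKM at spring and 502 to 33950 FPKM at neap tide. Of 8 endothelial and pericyte markers 0 were higher at spring tide and 3 fell, with sums of 93.8 to 130 FPKM at spring and 142 to 176 FPKM at neap tide. Of 10 neuronal markers 1 was higher at spring tide and 0 passed, with sums of 1355 to 1959 FPKM at spring and 1544 to 1970 FPKM at neap tide.

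With the pituitary score as a covariate, 1 of the 43 genes passed in the tide comparison, LOC101066901 (log2 difference 0.88, SE 0.17, adjusted p = 0.0396), 39 of 43 remained above 0, and hspa5 had 0.40 (adjusted p = 0.269) and dnajc3 0.59 (adjusted p = 0.136). In that fit 7 of all genes tested rose. Its score held the gonadotropin subunits, and a fit with the score without them was not run. Waxing moon May fish 2 had a score of 4.54, against 8.64 in the next lowest library. A fit with the score but without this fish was not run, so its weight in these values is unknown. With the FPKM sum as a covariate, 0 members and 0 of all genes rose, and 36 of 43 members remained above 0. The median over the members was then 0.11, sec61g had 0.03, ssr2 0.01, manf 0.05, dnajc3 0.33 (adjusted p = 0.887), hspa5 0.40 and LOC101066901 0.74 (adjusted p = 0.523). Between new and full moon the medians were closer, 10.7 at new and 10.9 at full moon for the pituitary score and 492 kFPKM at new and 525 kFPKM at full moon for the FPKM sum. The summed pituitary marker list, however, had medians of 35990 FPKM at new and 44500 FPKM at full moon. Of its 15 tested genes 11 were lower at new moon, with a median log2 difference, new minus full, of -0.29. The summed neuronal markers had medians of 1801 FPKM at new and 1560 FPKM at full moon, and those of meninges and fibroblasts 66.5 FPKM at new and 90.1 FPKM at full moon. The part of all these cells in the full moon values was not tested. The 43 genes together made up 0.358% to 0.428% of a library's FPKM sum at new moon and 0.450% to 0.613% at full moon, and the highest of the neap libraries had 0.448%. All 6 full moon libraries thus lay above the other 18 on this measure.

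**Figure D4:**
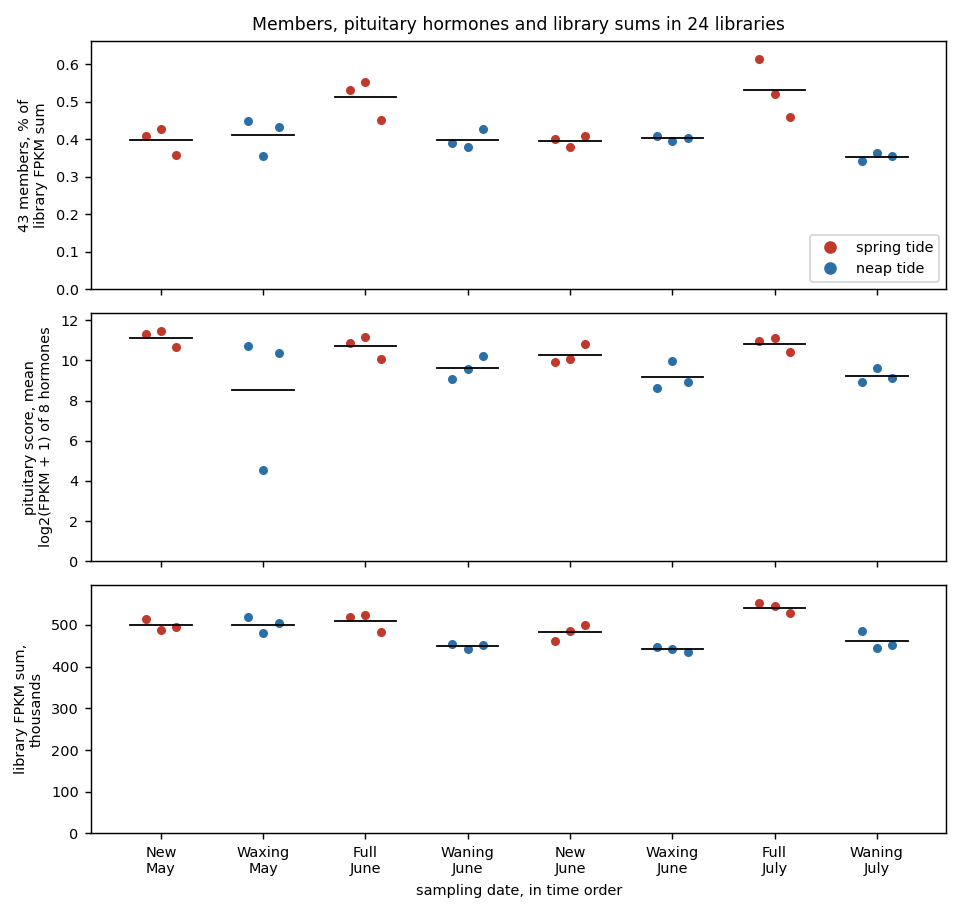
Share of the library FPKM sum held by the 43 genes (top), pituitary score (middle) and FPKM sum in kFPKM (bottom) in each library, with bars at date means. The member share is highest at the full moons, between 0.450% and 0.613%. The mean pituitary score is 11.1 at New moon May and 10.3 at New moon June, against 10.7 at Full moon June and 10.8 at Full moon July. Waxing moon May fish 2 is low in the score at 4.54.

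One library stands apart in its hormone transcripts. Waxing moon May fish 2, a neap library, had a pituitary score of 4.54, and 37 of the 43 genes were lower in it than in both other fish of its date. Its FPKM sum, 480 kFPKM, was also below those of fish 1 (519 kFPKM) and fish 3 (504 kFPKM). The share of all genes lower in it is not given, so the 37 are not shown to be particular to the members. hspa5 had 62.4 FPKM in this fish, against 127 and 153 FPKM in its mates, and LOC101066901 had 4.64 FPKM, against 11.02 and 14.7 FPKM. In 34 of 43 genes its value still lay within the range of the other neap libraries. Without this fish 8 of the 11 genes passed in the tide comparison, and 1.26% of all genes rose. hspa5 (0.65, adjusted p = 0.0564), pdia3 (0.34, adjusted p = 0.0601) and spcs1 (0.28, adjusted p = 0.0538) then missed the threshold.

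The 11 calls depended on single dates and libraries. Without New moon May 0 members and 0 of all genes rose, and without Full moon July 0 members and 3 of all genes rose. Without Waxing moon May 28 members and 1869 of all genes rose, and without Full moon June 14 members and 325 of all genes rose. The log2 difference of LOC101066901 stayed between 1.12 and 1.38 whichever date was left out. Leaving out single libraries gave 5 to 21, with 5 without New moon May fish 1 (0.475% of all genes rose) or Waning moon July fish 2 (0.375%), 21 without Waxing moon May fish 1 (3.08%) and 20 without Full moon June fish 3 (2.47%). It gave 7 without Full moon June fish 1 or 2, Waning moon June fish 2, New moon June fish 3, Waxing moon June fish 1, Full moon July fish 1 or 2, or Waning moon July fish 3. In these fits 0.721% to 0.873% of all genes rose. With the 8 date means as samples 0 members and 1 of all genes rose. LOC101066901 passed in 41 of 45 alternative settings, sec61b and kdelr3 in 37, srp9 and dnajc3 in 35, creld2 in 33, sec11a in 32, sec61g in 22, spcs1 and pdia3 in 10 and hspa5 in 9.

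Several members have a copy that the annotation lists under an LOC symbol. Ratios within 7 such pairs were compared between the 4 spring and the 4 neap date means by exact two-sided permutation, a test chosen once these values were known. The alpha subunits of TRAP are the first pair. The log2 ratio of LOC101066901 over ssr1 was -1.22, -1.18, -1.71 and -1.12 at the 4 spring dates in time order, against -2.10, -2.47, -2.47 and -2.29 at the neap dates. These do not overlap, and the ratio was higher by 1.03 at spring tide (exact p = 0.0286, the smallest that 70 assignments allow, 0.2 adjusted over the 7 pairs). LOC101066901, like dnajc3 and pdia3 of other pairs, was chosen with its tide difference known. The exact p-values of these pairs are therefore no separate support for a tide difference.

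The dnajc3 pair went the other way. LOC101061949 (dnaJ homolog subfamily C member 3-like) averaged 16.2 ± 1.37 FPKM at spring and 15.2 ± 0.63 FPKM at neap tide, so that its log2 ratio to dnajc3 averaged -0.25 ± 0.52 over the spring dates and 0.59 ± 0.33 over the neap dates (exact p = 0.0571, 0.2 adjusted, n = 4 dates each). LOC101067334, a pdia3-like copy, stayed at 17.3 FPKM in both tides, and its ratio to pdia3 differed by -0.36 (exact p = 0.171, 0.3 adjusted). LOC101074526, named as calreticulin, was itself higher at spring tide by 0.70 (SE 0.18, adjusted p = 0.0340) with 158 ± 59.0 FPKM at spring and 95.7 ± 33.6 FPKM at neap tide, and its ratio to calr differed by 0.37 (exact p = 0.171, 0.3 adjusted). The pairs of ssr4, sec61a1 and LOC101066257 differed by 0.02 to 0.04, and no pair passed after adjustment. Reads that fit both copies can be split between them by the counting, so levels of single copies are uncertain.

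**Figure D5:**
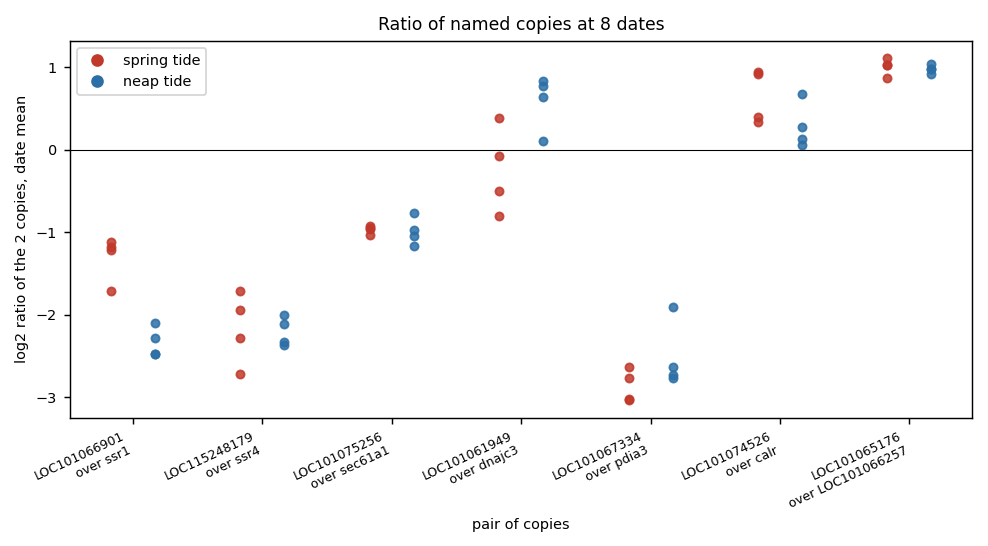
Log2 ratio of 7 pairs of copies at the 4 spring dates (left) and 4 neap dates (right of each pair), each point a date mean. The LOC101066901 to ssr1 ratio is above -1.8 at every spring date and below -2 at every neap date, whereas the pairs of sec61a1 and LOC101066257 differ little between the tides.

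Of 16 tested copies of this kind, 12 were higher at spring tide, 1 rose (LOC101074526) and 1 fell. The copy that fell was LOC101073975, a second catalytic oligosaccharyltransferase subunit STT3B, with 13.3 ± 1.26 FPKM at spring and 18.1 ± 2.60 FPKM at neap tide (log2 difference -0.41, adjusted p = 0.0340). Both calnexins have LOC symbols, and neither passed (LOC101070859 0.13, LOC101069714 -0.26).

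Calls of neighbouring steps of the secretory route in the tide comparison stand beside 1.32% of all genes that rose and 4.31% that fell. In groups of this size 1 gene that rose is already above that share. Of 23 tested genes of ER-associated degradation, which removes misfolded proteins, 0 rose and 1 fell (rnf139, -0.36, adjusted p = 0.0352), and 10 were higher at spring tide. Of 21 sensors and regulators of the unfolded protein response 0 rose and 0 fell, and the smallest adjusted p was 0.0530, for creb3l1 (0.64). Among 21 other ER oxidoreductases 1 rose, p4hb (0.40, adjusted p = 0.0363), the most familiar disulfide isomerase, and 1 fell, qsox2 (-0.36, adjusted p = 0.0282). Of 6 prolyl isomerases and other ER J-proteins 1 rose, fkbp11, with 13.9 ± 6.32 FPKM at spring and 6.51 ± 0.92 FPKM at neap tide (0.87, adjusted p = 0.0316).

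Of 33 genes of glycan trimming and further oligosaccharyltransferase subunits 1 rose, mcfd2 (0.74, adjusted p = 0.0233), a cargo receptor partner. None of 21 genes of membrane protein insertion passed (smallest adjusted p 0.0565, tram1, 0.35), and none of 27 of the COPII coat, which buds cargo from the ER (smallest 0.0808, ykt6, 0.20). Of 22 genes of the COPI coat and its cargo receptors 2 rose, tmed9 (0.27, adjusted p = 0.0386) and arfgap2 (0.17, adjusted p = 0.0485). Of 15 genes of prohormone processing 1 rose, the carboxypeptidase gene cpe, with 494 ± 63.3 FPKM at spring and 337 ± 22.5 FPKM at neap tide (0.54, SE 0.09, adjusted p = 0.00752). These groups had medians between -0.04 and 0.15, below the 0.27 of the 43 genes, and that difference was not tested. The share higher at spring tide was 70.4% for the COPII coat, 66.7% for the other oxidoreductases, for the prolyl isomerases and for prohormone processing, 63.6% for the COPI coat, 61.9% for the sensors and regulators, 57.6% for glycan trimming, 43.5% for ER-associated degradation and 42.9% for membrane insertion, against 93.0% of the 43 genes and 41.5% of all genes.

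Lower levels at new than at full moon were common in most of these groups too, against 8855 of 17058 of all genes. Of the COPII genes 26 of 27 were lower at new moon (median -0.12), as were 18 of 22 of the COPI coat (-0.21), 17 of 21 other oxidoreductases (-0.13), 17 of 23 of ER-associated degradation (-0.04) and 15 of 21 sensors and regulators (-0.21). Lower too were 23 of 33 of glycan trimming (-0.11), 14 of 21 of membrane insertion (-0.04) and 4 of 6 prolyl isomerases and J-proteins (-0.06). Prohormone processing, with 8 of 15 (-0.10), was near the share of all genes. None of these genes passed. The lower levels at new moon were therefore not shown to be particular to the 43 genes.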

How the data were processed

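The values are the authors' deposited FPKM for 24 libraries, given with 2 decimals. Per the labels' protocols, libraries of poly-A RNA kept the strand and were sequenced as read pairs of 100 bases, and per the submitters' processing notes HISAT2 2.0.4 and RSEM 1.2.12 were used. A genome build is, in the sources used here, not given. Read numbers, and so the depth and its precision, are unknown, and no counting interval is given.

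The deposited FPKM were changed to log2(FPKM + 1), and the 17058 genes with a mean of at least 1 were tested with limma 3.58.1 and statmod 1.5.0 in R 4.3.3 (intensity trend, 4 moon phases, date as random block, Benjamini-Hochberg over all genes, threshold 0.05). Libraries of a date correlated at 0.264 in the fit of tide and phases, 0.290 for the cycles and 0.276 for the week trend, whose model held tide and week. Fits without a library or date took this correlation from every 4th gene. The test among dates had no block. The tide was taken from the moon phase. Tests were tried on simulated data. Tables used Python 3.11.15 and scipy 1.17.1.

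The 43 members and all lists were chosen with earlier results of these data known. Named are members past the tide threshold, the 3 highest in FPKM per role, the smallest p-values of other comparisons, and in other lists up to 3 genes past the threshold or the smallest p. Further genes are named because a count is small or their values stand apart, after these were seen. Some gene descriptions are withheld and such genes are not reported here.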

Additional observations from a re-analysis of the deposited data

Results flagged for a closer look

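In sets of 4 date means of 1 tide, 3 members had 1 date far from the other 3 dates, relative to the whole range of the set. srp54, the signal peptide binder of the SRP, was at 58.1 FPKM at Full moon July, and at 47.8 to 49.5 FPKM at the other spring dates. calr was at 51.8 FPKM at Waning moon July, and at 81.6 to 86.1 FPKM at the other neap dates. sec63 was at 18.2 FPKM at Waning moon June, and at 18.7 to 18.8 FPKM at the other neap dates, a small step in a gene with a narrow range. Chance marks about 1 in 20 such sets, and 86 sets were examined.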

How the results depend on the processing

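Of the 28 named members' tide differences, refitted in 45 settings each (1260 fits), 1019 kept direction and side of the threshold, 194 lost the call, 41 gained it and 6 reversed. These 6 were srp19 (-0.038), sec61a1 (-0.066) and rpn2 (-0.0070) with libraries scaled to the same sum, and sec61a1 (-0.033), ssr3 (-0.0090) and dad1 (-0.074) with the FPKM sum as a covariate. The 11 members that rose became 6 with libraries scaled to the same sum, 0 with the FPKM sum, 1 with the pituitary score and 6 with the week as a covariate, 4 with 2 tide groups and 0 with date means as samples. In the same order 0.68%, 0%, 0.041%, 0.698%, 0.487% and 0.00586% of all genes rose, against 1.32% in the main fit. The 11 became 15 with median-ratio scaling (2.04% of all genes rose) and 13 without a filter on low values (1.38%). They became 8 with quantile normalization (1.58%), with a minimum mean of 5 FPKM (1.21%) and without an intensity trend (1.16%). Without 1 date the members that rose were 0 (New moon May, Full moon July), 28 (Waxing moon May), 14 (Full moon June), 2 (Waning moon June), 3 (New moon June) or 1 (Waxing moon June, Waning moon July), and without 1 library 5 to 21. Of all genes, 0% rose without New moon May, 0.0176% without Full moon July, 1.91% without Full moon June and 11% without Waxing moon May. The share was 0.135% without Waning moon June, 0.164% without New moon June, 0.0938% without Waxing moon June and 0.0293% without Waning moon July. Without 1 library it was 0.375% to 3.08%. The 0 that fell became 2 with libraries scaled to the same sum, 1 without a filter on low values, 1 without Waxing moon May and 0 to 1 without 1 library. Of all genes, 16.8% fell with libraries scaled to the same sum, 4.21% without the filter and 21.7% without Waxing moon May. Without 1 library 1.3% to 8.51% of all genes fell. For new minus full moon, 0 became 1 without the filter (0.0241% of all genes passed), 8 without Waxing moon May (0.727%) and 8 without Waxing moon June (0.791%). Without 1 library it became 0 to 9, with 9 without Full moon June fish 3 (0.692%) and 1 without New moon May fish 1 (0.0293%). For waxing minus waning moon, 0 became 2 without Waxing moon June. The share of all genes in that fit is not given, so the 2 are not shown to be particular to the members. Among dates, 33 became 8 with the FPKM sum as a covariate (7.7% of all genes) and 31 to 37 without 1 library (34.8% to 44.8%). The cause was not tested, beyond fewer dates or libraries in the fits that leave them out. The ratios of 3 copy pairs near 0 crossed 0 without single libraries: LOC115248179 over ssr4 ran from -0.048 to 0.17, LOC101075256 over sec61a1 from -0.0037 to 0.050 and LOC101065176 over LOC101066257 from -0.0039 to 0.055. Deviations of libraries with the same replicate number correlated at -0.303 to 0.243 (median 0.0165, in 84 pairs). Those with different numbers correlated at -0.301 to 0.346 (median -0.00819, in 168 pairs). Of the 24 libraries 13 were closest to their own number out of 3. The count expected if the numbers carried no meaning is not given. Whether the numbers mark pairs or a batch cannot be told from these values. With the replicate number as a block 9 members rose and 0 fell, and 1.34% of all genes rose. Depth is unknown, so its limits could not be set.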
